A study of Mus musculus with 18 samples.

Results

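Sperm and motile cilium genes were examined in epididymal white adipose tissue (eWAT), with liver and quadriceps muscle of the same study for contrast. The genes were taken by name from the deposited expression table. They were the protamines and transition proteins (*Prm1* to *Prm3*, *Tnp1* and *Tnp2*, 5 genes) and the numbered members of the *Odf* (8), *Tekt* (5), *Dnah* (15), *Dnai* (4), *Rsph* (8), *Cfap* (35) and *Spata* (30) families. The name rule found 110 of the 21899 listed genes, and all 110 had a value above 0 in at least 1 library. The set was chosen by its FPKM in eWAT, where members had been seen to differ between libraries, so the eWAT values are given as a description, with no test. Liver and muscle were not used for that choice and were tested.

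Male wild-type C57BL/6 mice in the HSD group received chow with 8% NaCl and 0.9% saline to drink for 12 weeks, and those in the CON group received chow and tap water. All were 18 weeks old. RNA of 3 CON and 3 HSD mice per tissue was depleted of rRNA and sequenced in 18 libraries, named here by mouse and tissue (L for liver, W for eWAT, M for muscle). Most mice gave more than 1 tissue, and nothing in the records names pooling. The eWAT libraries were CON16W, CON71W and CON72W in the CON group and HS2W, HS3W and HS5W in the HSD group. The study's own quality listing holds 15 of the 18 libraries and leaves out CON16L, HS5L and HS5W. All 18 were used here.

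Values are FPKM, fragments scaled to exon length and to library size, so levels can be set side by side between genes of different length. The FPKM of 107 of the 110 genes came out as whole numbers of fragments once exon lengths were applied, and these are given where depth matters. The library totals lay between 7628074 and 16637489 fragments, with a median of 12352232.5. In eWAT they lay between 12299225 and 16637489. The labelled tissues were checked against defining markers. In every eWAT library, 10 of 10 adipocyte markers were at 1 FPKM or more, with a sum of 25569 to 30760 FPKM in 5 libraries but 9516 FPKM in HS3W. All 10 hepatocyte markers passed 1 FPKM in every liver library, and all 10 skeletal muscle markers did so in every muscle library. Of the livers, CON16L stood apart with a skeletal muscle marker sum of 4686 FPKM, against 2.16 to 6.81 FPKM in the other 5. In eWAT this muscle list summed to 9.68 to 18.8 FPKM in the CON group and 30.9 to 47.2 FPKM in the HSD group. The hepatocyte list in eWAT had 8 to 10 genes at 1 FPKM or more per CON library and 2 to 5 per HSD library.

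Motile cilia and the sperm tail share an axoneme, a core of microtubules that bends when dynein motors slide its doublets past each other. *Dnah* genes encode the dynein heavy chains and *Dnai* genes the intermediate chains. *Rsph* genes encode radial spoke proteins, *Tekt* genes encode tektins inside the doublets, and many *Cfap* genes encode further parts of cilia and flagella. Other members are linked to sperm. Outer dense fibre proteins such as ODF1 stiffen the tail. In late spermatids the transition proteins and then the protamines replace histones and pack the DNA. *Spata* is a naming series for genes linked to spermatogenesis and joins unrelated proteins, several of which are used in many tissues. Fat tissue is not known for motile cilia. Epididymal fat lies against the epididymis, the duct in which sperm mature, and close to the testis.

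*Prm1*, *Prm2*, *Prm3* and *Tnp2* lie side by side at chr16:10787936-10805839 of mm10. The 250 bases before the start of the 3 most abundant of them are shown because these genes varied together between eWAT libraries. They are set beside *Tekt1*, an axonemal gene that was also present in muscle. Sequences are from RefSeq (GRCm38.p6), on the gene's strand, 5′ to 3′, and all 4 genes are on the minus strand. Capitals mark matches on either strand to TGANNTCA, a form of the cAMP response element, GTTGCC, a half-site of the X-box bound by RFX factors, or TATAAA, the TATA box. *Prm1* is at chr16:10796824-10797073, *Prm2* at chr16:10792106-10792355, *Tnp2* at chr16:10788656-10788905 and *Tekt1* at chr11:72361883-72362132.
Prm1: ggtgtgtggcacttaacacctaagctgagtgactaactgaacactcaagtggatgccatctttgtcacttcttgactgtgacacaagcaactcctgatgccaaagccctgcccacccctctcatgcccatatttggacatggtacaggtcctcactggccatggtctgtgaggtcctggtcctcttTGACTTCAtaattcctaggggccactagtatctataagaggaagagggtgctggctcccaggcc
Prm2: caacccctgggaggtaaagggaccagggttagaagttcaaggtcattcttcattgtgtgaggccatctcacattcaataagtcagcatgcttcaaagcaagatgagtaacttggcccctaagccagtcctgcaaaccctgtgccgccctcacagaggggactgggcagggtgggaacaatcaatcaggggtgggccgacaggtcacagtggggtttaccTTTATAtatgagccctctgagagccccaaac
Tnp2: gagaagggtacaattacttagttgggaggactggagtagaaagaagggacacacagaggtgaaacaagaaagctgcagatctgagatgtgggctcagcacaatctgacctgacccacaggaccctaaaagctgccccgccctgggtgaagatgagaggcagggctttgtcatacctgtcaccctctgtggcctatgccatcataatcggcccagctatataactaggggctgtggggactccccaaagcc
Tekt1: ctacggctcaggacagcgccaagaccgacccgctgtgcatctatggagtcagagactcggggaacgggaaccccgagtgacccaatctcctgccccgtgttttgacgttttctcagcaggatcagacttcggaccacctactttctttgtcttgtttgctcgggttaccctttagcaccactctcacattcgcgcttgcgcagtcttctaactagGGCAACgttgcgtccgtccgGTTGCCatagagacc
*Prm1* held TGACTTCA from 64 bases before the start. *Prm2* held TTTATA, a match to the letters TATAAA on the reverse strand, from 31 bases before the start. In the *Tnp2* window none of the letters searched were found, and other forms of a TATA box were not searched. *Tekt1* held the X-box half-site on both strands, from 35 and 15 bases before the start. Of the 110 members, 94 matched an entry of the promoter table. The half-site GTTGCC was in 23 of these 94 (24.5%), against 11.8% of all 27025 genes, and in 10 of 28 *Cfap* genes. TGANNTCA was in 13 of 94 (13.8%), against 13.5% of all genes, and in 3 of 5 protamine and transition protein genes. TATAAA was in 6 of 94 (6.38%), against 14.3% of all genes. These matches describe letters only.

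The level of the 110 genes was highest in eWAT. As the set was chosen by its eWAT values, the counts here are a description. Of the 3 tissues, eWAT had the highest median FPKM for 100 members, muscle for 4 (*Spata9*, *Cfap298*, *Spata1* and *Odf3l2*) and liver for 3 (*Spata2l*, *Odf3b* and *Spata22*). The other 3, *Tnp1*, *Spata31d1c* and *Spata31d1d*, had a median of 0 in each tissue. At 1 FPKM or more were 10 to 13 members in a liver library, 13 to 16 in a muscle library and 21 to 82 in an eWAT library. In liver, 35 members were at 0 in all 6 libraries, in muscle 26 and in eWAT 1 (*Odf3l2*). In eWAT, 20 members reached 1 FPKM in every library. For 54 members (49.1%), every eWAT library lay above every liver and muscle library, and this held for 36.5% of all genes above 0. FPKM ran higher in eWAT for genes in general. The median over all genes above 0 was 2.64 to 3.63 FPKM in eWAT libraries, 0.58 to 0.90 FPKM in liver and 0.92 to 1.15 FPKM in muscle. The part of this shift in the counts of members was not tested. The counts by highest median, at 1 FPKM and at 0 have no share over all genes beside them, so nothing is read from them.

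**Figure D1:**
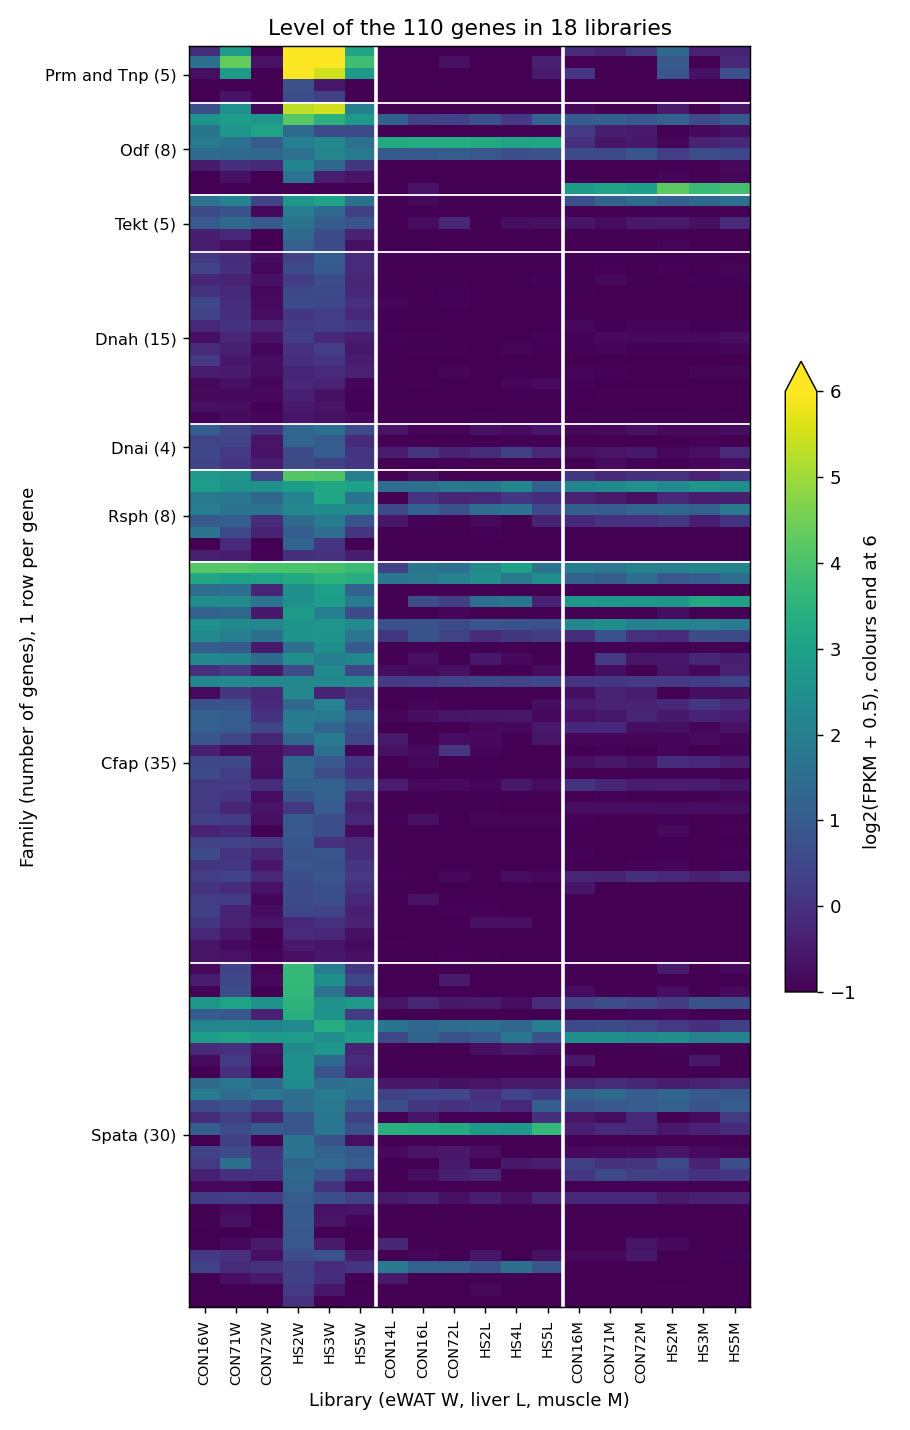
Heat map of log2(FPKM + 0.5) of the 110 genes (rows, by family) in 18 libraries (columns, 6 per tissue), with colours ending at 6. HS2W and HS3W are the brightest columns, CON72W is the darkest of eWAT, and few rows are bright in liver or muscle.

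In summed level, the eWAT libraries differed within each diet, more so in the HSD group. The summed level of the 110 genes was 163, 199 and 107 FPKM in CON16W, CON71W and CON72W, and 836, 501 and 173 FPKM in HS2W, HS3W and HS5W. HS5W thus lay within the range of the CON group, whereas HS2W and HS3W lay far above it. The number of members at 1 FPKM or more followed the same order at the top, with 82 in HS2W and 74 in HS3W. It was 36 in HS5W, 39 in CON16W, 40 in CON71W and 21 in CON72W. HS2W was the highest eWAT library for 56 of the 110 members (50.9%, against 21.1% of the 18561 genes above 0 in eWAT) and HS3W for 42 (38.2%, against 38.3%). CON72W was the lowest or tied lowest for 84 members (76.4%, against 29.7% of all genes). In such bulk tissue, fewer cells of a type and less RNA per cell cannot be told apart.

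The sperm DNA packaging genes spanned the widest range. *Prm1*, encoding protamine 1, was at 0.11, 6.82 and 0 FPKM in CON16W, CON71W and CON72W, and at 139, 44.6 and 6.42 FPKM in HS2W, HS3W and HS5W. *Prm2*, encoding protamine 2, was at 2.51, 20 and 0.13 FPKM in the CON group and at 155, 72.2 and 13.8 FPKM in the HSD group, in the same order. *Tnp2*, encoding transition protein 2, was at 0.45, 6.67 and 0 FPKM and at 181, 63.4 and 8.001 FPKM. The order of the libraries was HS2W, HS3W, then CON71W and HS5W close together, then CON16W and last CON72W. The diet groups of *Prm1* and *Prm2* overlapped, since CON71W exceeded HS5W, and those of *Tnp2* did not.

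The 2 remaining genes of this family were near their counting limit. *Tnp1*, encoding transition protein 1, had 7 fragments in HS2W (1.17 FPKM), 1 in HS3W (0.19 FPKM) and none in the other 4. *Prm3* had 6 fragments in HS2W (1.07 FPKM), 4 in HS3W (0.79 FPKM), 1 in CON71W (0.16 FPKM) and none in the other 3. Depth did not limit *Prm1*, *Prm2* and *Tnp2* in HS2W, where they had 1082, 1891 and 1371 fragments. The 0 of *Prm1* and *Tnp2* in CON72W allows levels of up to 0.32 and 0.33 FPKM (3 fragments, counting error only). The family sum was 3.07, 33.6 and 0.13 FPKM in the CON group and 477, 181 and 28.3 FPKM in the HSD group. It was at most 0.47 FPKM in liver and 4.78 FPKM in muscle.

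Outer dense fibre genes held members of several patterns. *Odf1*, encoding the main outer dense fibre protein of the sperm tail (chr15:38219203-38226735), was at 1.13, 5.31 and 0.05 FPKM in the CON group and at 39.2, 45.7 and 3.60 FPKM in the HSD group. *Odf2*, whose protein is also found at centrioles in other cells, was at 5.69, 6.94 and 5.75 FPKM in the CON group and at 17.7, 10.7 and 6.52 FPKM in the HSD group. *Odf1* repeated the order of the protamines except that HS3W was highest, while *Odf2* was between 5.69 and 6.94 FPKM in the other 4 libraries. *Odf3l1* went the other way, with 2.77, 5.91 and 7.69 FPKM in the CON group and 2.24, 1.00 and 0.99 FPKM in the HSD group. It was the only *Odf* gene with every HSD library below every CON library. *Odf3b* was at 3.21, 2.62 and 1.55 FPKM and at 3.53, 4.64 and 2.52 FPKM, and its groups overlapped. The family sum was 15.2 to 23.5 FPKM in the CON group, 71.9 FPKM in HS2W, 68.3 FPKM in HS3W and 17.4 FPKM in HS5W.

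Tektin genes were lower, with sums of 2.34 to 15.9 FPKM in eWAT libraries. *Tekt1* was at 2.69, 3.91 and 0.85 FPKM in the CON group and at 5.92, 7.67 and 2.59 FPKM in the HSD group. *Tekt4* was at 1.03, 1.22 and 0.06 FPKM and at 3.34, 2.16 and 0.77 FPKM. *Tekt2* was at 1.44, 2.15 and 1.42 FPKM and at 2.74, 1.58 and 1.25 FPKM. HS2W was highest for 4 of the 5 tektin genes and HS3W for *Tekt1*, and none of the 5 had diet groups that did not overlap. *Tekt3* and *Tekt5*, chosen for mention after their values were seen, reached 2.18 and 1.70 FPKM in HS2W and were at 0 in CON72W.

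**Figure D2:**
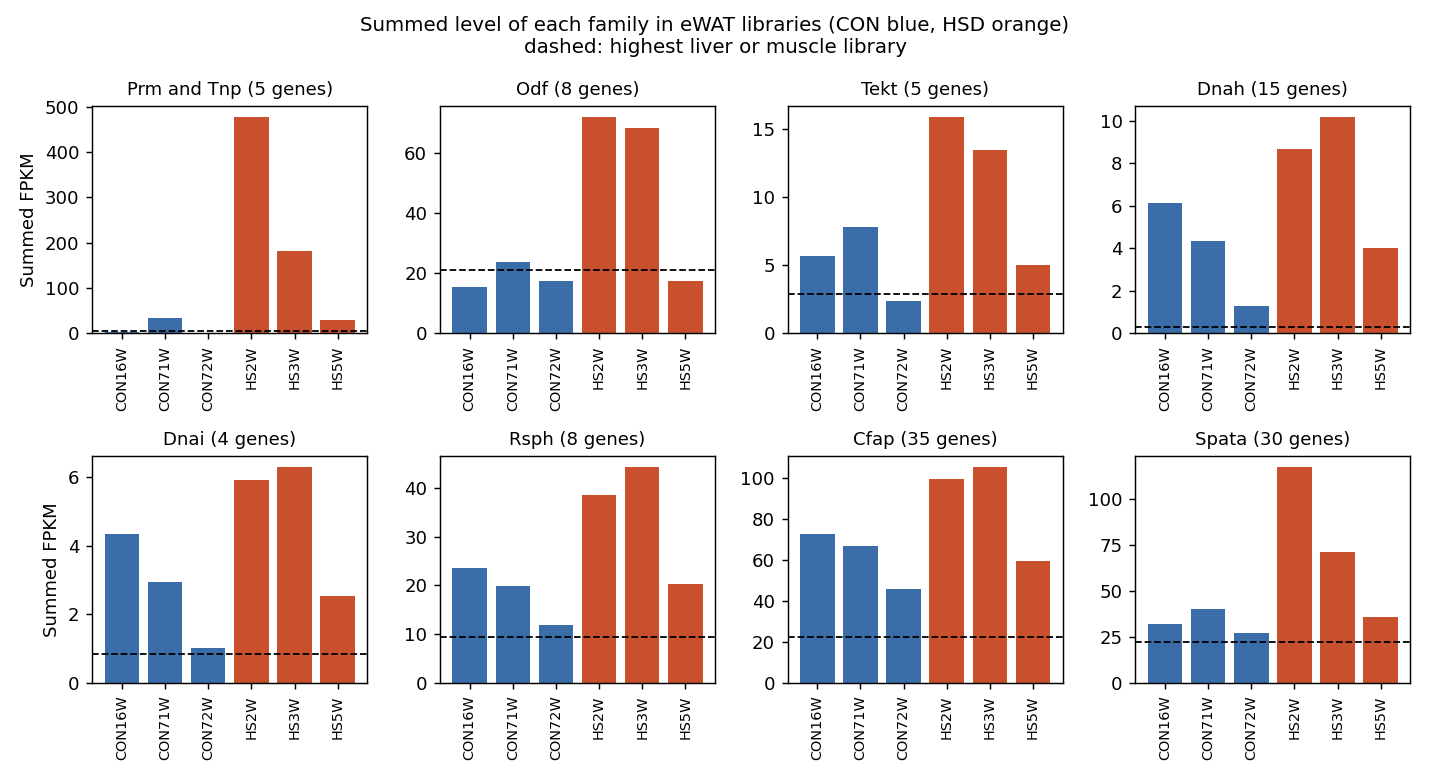
Bars give the summed FPKM of each family in the 6 eWAT libraries (CON blue, HSD orange), each panel with its own scale from 0, and the dashed line gives the highest liver or muscle library. HS2W and HS3W are highest in each family, HS5W falls within the CON range in each, and CON72W is lowest in each but *Odf*.

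Dynein heavy chain genes, the motors of the axoneme, were low in every library. *Dnah5*, a heavy chain of the outer dynein arm, was at 0.91, 0.44 and 0.08 FPKM in the CON group and at 0.98, 0.93 and 0.48 FPKM in the HSD group. *Dnah6* was at 0.85, 0.49 and 0.06 FPKM and at 0.97, 1.48 and 0.42 FPKM. *Dnah12* was at 0.64, 0.43 and 0.10 FPKM and at 0.79, 1.59 and 0.39 FPKM. Since these genes are long, such levels rest on many fragments: *Dnah5* had 229 in CON16W, 209 in HS2W and 20 in CON72W. CON16W was thus level with HS2W for *Dnah5*, although its *Prm1* rested on 1 fragment. *Dnah2* was at 0.36, 0.30 and 0.12 FPKM and at 0.71, 1.06 and 0.34 FPKM. *Dnah3* was at 0.38, 0.52 and 0.29 FPKM and at 0.69, 0.73 and 0.59 FPKM. The sum of the 15 genes was 6.16, 4.35 and 1.30 FPKM in the CON group and 8.70, 10.2 and 4.04 FPKM in the HSD group. In liver it was at most 0.14 FPKM and in muscle at most 0.28 FPKM. Fragments of the near-identical *Dnah7a*, *Dnah7b* and *Dnah7c* may be split between them, so their single values are uncertain.

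The intermediate chain genes had their lowest value in CON72W, and the radial spoke genes were mixed. *Dnai4* was at 1.68, 0.94 and 0.53 FPKM in the CON group and at 1.98, 2.47 and 0.96 FPKM in the HSD group. *Dnai3* was at 0.89, 0.82 and 0.15 FPKM and at 1.86, 1.55 and 0.39 FPKM. *Dnai1*, of the outer arm, was at 0.92, 0.62 and 0.13 FPKM and at 1.05, 1.55 and 0.60 FPKM. CON72W was lowest for all 4 *Dnai* genes, and CON16W exceeded HS5W for each of the 4. *Rsph1*, a radial spoke head gene, was at 6.09, 5.72 and 0.88 FPKM and at 17.3, 15.9 and 3.45 FPKM. *Rsph9*, also of the spoke head, was at 3.08, 2.84 and 2.03 FPKM and at 3.80, 8.48 and 2.81 FPKM. *Rsph3b* was at 6.65, 5.49 and 5.54 FPKM and at 7.15, 8.54 and 7.49 FPKM. *Rsph3a*, a near copy of *Rsph3b* with which fragments may be shared, was at 3.31, 2.67 and 2.67 FPKM and at 4.18, 4.83 and 4.54 FPKM. Both lacked the low value in CON72W and were also found in liver and muscle.

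Of the 35 *Cfap* genes, the most abundant were broadly expressed. *Cfap36*, encoding a partner of the small GTPase ARL3, was at 17.2, 17.2 and 15.6 FPKM in the CON group and at 15.2, 14.96 and 13.2 FPKM in the HSD group. *Cfap20* was at 8.49, 7.26 and 7.72 FPKM and at 9.07, 11 and 9.79 FPKM. *Cfap97* was at 5.30, 4.53 and 4.20 FPKM and at 5.68, 5.74 and 4.55 FPKM. These 3 genes varied little between eWAT libraries and were above 0 in each liver and muscle library. *Cfap65*, needed for the sperm tail, was at 2.35, 2.46 and 0.32 FPKM and at 5.23, 7.22 and 1.86 FPKM, and at 0 in every liver library. CON72W was the lowest or tied lowest library for 29 of the 35 *Cfap* genes. HS3W was highest for 18 and HS2W for 14, and 28 of the 35 reached 1 FPKM in each of these 2 libraries, against 7 to 16 in the other 4.

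*Spata* genes leaned more towards HS2W. *Spata20*, encoding a thioredoxin-like sperm protein, was at 0.07, 0.83 and 0.02 FPKM in the CON group and at 12.1, 3.37 and 0.56 FPKM in the HSD group. *Spata4* was at 0.24, 0.94 and 0.06 FPKM and at 12.1, 5.08 and 0.94 FPKM. *Spata21* was at 0.02, 1.05 and 0 FPKM and at 11.9, 2.69 and 0.41 FPKM. HS2W was highest for 20 of the 30 *Spata* genes and HS3W for 6. *Spata6*, needed for the neck of sperm, was at 6.01, 7.85 and 5.51 FPKM and at 11.1, 5.47 and 6.30 FPKM, also highest in HS2W but lowest in HS3W. *Spata2*, an adaptor of the deubiquitinase CYLD, was at 6.78, 7.71 and 6.25 FPKM and at 6.73, 4.90 and 7.12 FPKM. *Spata13* was at 4.18, 4.07 and 3.97 FPKM and at 4.58, 9.81 and 5.45 FPKM. *Spata2* was highest in CON71W and *Spata13* in HS3W.

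HS2W was set beside CON16W, a control library with few protamine fragments but *Dnah* levels near those of HS2W. HS2W is the library with the highest sum of the members, and CON16W was also chosen for its values of these genes. The folds are conditioned on both choices and describe these libraries only. Another control would split the families otherwise: CON71W was above CON16W for 4 of the 5 protamine family genes and 0 of the 4 *Dnai* genes. Of the 82 members at 1 FPKM or more in HS2W, 21 (25.6%) were 8-fold or more above CON16W, 23 were 2-fold to 8-fold above it, and 38 (46.3%) were under 2-fold. A CON16W value below 3 fragments was set to that limit for these folds. Of all 12387 genes at this level in HS2W, 3.40% were 8-fold or more above CON16W and 93.2% under 2-fold. The 21 members were 12 *Spata*, 3 *Odf* (*Odf1*, *Odf3* and *Odf4*), *Prm1*, *Prm2* and *Tnp2*, *Tekt3*, *Rsph6a* and *Cfap97d1*. Under 2-fold were 20 of 28 *Cfap*, 5 of 7 *Rsph* and 3 of 4 *Dnai* genes. Most families were spread over the classes, with 8 *Spata* genes between 2-fold and 8-fold and 6 under 2-fold, and 3 of 7 *Odf* genes under 2-fold. The 15 *Dnah* genes had no part in these counts, since none reached 1 FPKM in HS2W.

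**Figure D3:**
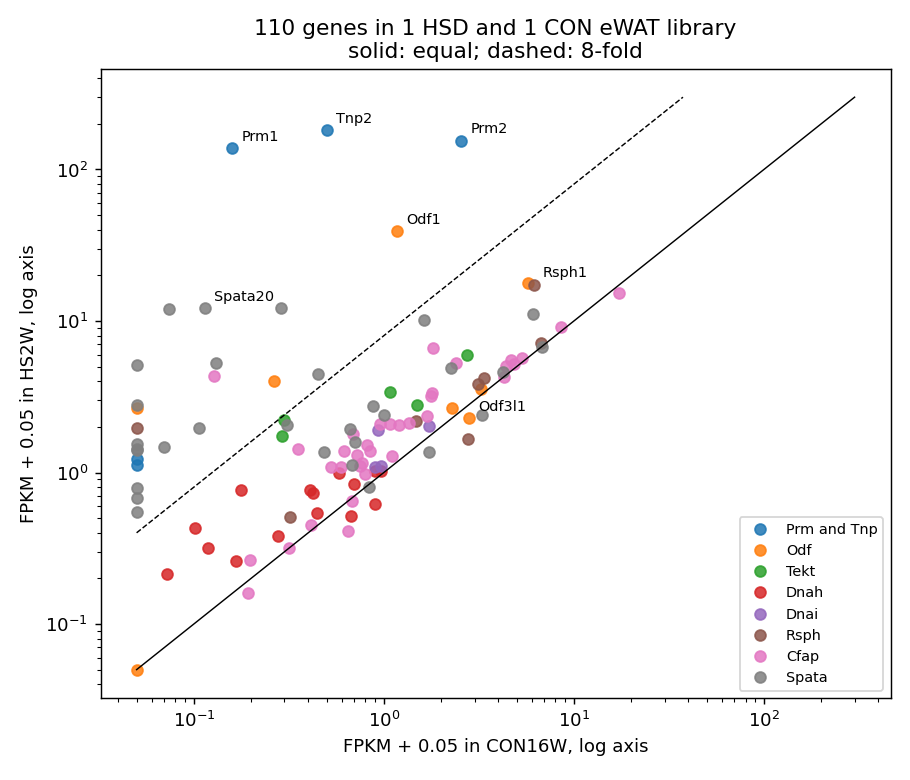
Each point is 1 of the 110 genes by its FPKM + 0.05 in CON16W (x axis) and HS2W (y axis), both log axes, with the solid line at equality and the dashed line at 8-fold. *Prm1*, *Prm2*, *Tnp2*, *Odf1* and many *Spata* genes lie far above the dashed line, whereas most *Cfap*, *Rsph* and *Dnai* genes lie near the solid line.

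Between the diets, the 3 HSD libraries lay above the 3 CON libraries for 20 of the 109 members above 0 in eWAT (18.3%), against 14.3% of all 18561 genes. The 20 were 9 *Spata*, 3 *Odf*, 3 *Cfap*, 2 *Dnah*, 2 *Rsph* genes and *Tnp2*. The HSD libraries lay below the CON libraries for *Cfap36* and *Odf3l1*, 2 of 109, against 10.4% of all genes. As the members were proposed from these values, nothing is read from the counts. The count of members above was held down by HS5W, and without that library it rose to 85 of 109, against 26.4% of all genes. Without CON16W it was 32 (20.6% of all genes) and without CON71W 36 (18.9%), while *Cfap36* and *Odf3l1* remained below in each of these. Limma called 0 of 13740 genes in eWAT at an adjusted p under 0.05 and a log2 difference of at least 1 in either direction (0%). There were 2298 at an unadjusted p under 0.05, and voom on recovered fragments also called 0, with 2144.

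Genes outside the name rule were read for the same libraries. Of 27 further spermatid and sperm genes, 26 reached 1 FPKM in HS2W, 19 in HS3W, 10 in CON71W, 8 in HS5W, 4 in CON16W and 3 in CON72W. *Smcp*, encoding a mitochondrial capsule protein of sperm, was at 1.98, 8.67 and 0.07 FPKM in the CON group and at 58.1, 59.9 and 4.52 FPKM in the HSD group. *Ldhc*, the lactate dehydrogenase of sperm, was at 0.75, 5.14 and 0 FPKM and at 39.7, 15.5 and 1.84 FPKM. HS2W was the highest library for 25 of the 27. *Gsg1*, a germ cell gene, was at 0.59, 2.45 and 0.04 FPKM and at 20.7, 7.23 and 1.012 FPKM. *Crisp2*, a sperm protein gene, was at 0.40, 2.58 and 0.02 FPKM and at 15.9, 6.72 and 0.71 FPKM. Of 14 meiotic and earlier germ cell genes, 2 to 6 reached 1 FPKM per library. Their highest was *Zbtb16*, also used outside the germ line, at 16.3 to 19.9 FPKM in the CON group and 33.6, 13.4 and 24.8 FPKM in the HSD group. *Mael*, a piRNA pathway gene of germ cells, was at 0.18, 2.06 and 0 FPKM and at 13.1, 4.97 and 0.62 FPKM. *Gfra1*, a receptor gene of spermatogonia and of nerves, was at 18.2 FPKM in HS3W and at most 1.06 FPKM in the other eWAT libraries. *Sycp3*, of the meiotic chromosome axis, was lowest in HS3W at 1.22 FPKM and highest in HS5W at 6.89 FPKM. HS2W was the highest library for 7 of the 14 and HS3W for 5, against 21.1% and 38.3% of all genes above 0 in eWAT. The 9 somatic genes of the testis summed to 5.90 to 8.06 FPKM in the CON group and 10.8 to 13.0 FPKM in the HSD group, which did not overlap, and 1 or 2 of them reached 1 FPKM in each library. No single gene of the 9 had groups that did not overlap. *Insl3*, a hormone gene of Leydig cells, was at 4.80, 4.55 and 4.44 FPKM and at 9.64, 3.78 and 9.81 FPKM. *Cyp17a1*, a steroid synthesis gene, was at 7.78 FPKM in HS3W and at most 0.53 FPKM in the others.

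The epididymal epithelium genes did not share the order of the protamines. The 20 genes summed to 12.0, 5.60 and 1.26 FPKM in the CON group and to 15.2, 27259 and 10.4 FPKM in the HSD group. All 20 were highest in HS3W, with *Gpx5* at 6610 FPKM there and at most 0.61 FPKM elsewhere, and *Lcn8* at 5972 FPKM against at most 3.38 FPKM. HS2W, with the highest *Prm1* of all libraries, had 2 of the 20 at 1 FPKM or more, while HS3W had all 20 and a lower *Prm1*. The 8 mesothelium markers did not move as 1 list. They summed to 270 FPKM in HS3W and 41.1 to 71.1 FPKM in the other eWAT libraries, but 3 genes that are also found in other epithelia held most of that sum, *Krt19* (118 FPKM), *Krt8* (108 FPKM) and *Upk1b* (29.8 FPKM). *Msln*, *Upk3b*, *Wt1* and *Lrrn4* had their lowest eWAT value in HS3W. The part of epididymal or testicular tissue, or of the lower adipocyte markers of HS3W, in the levels of the 110 genes was not tested.

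**Figure D4:**
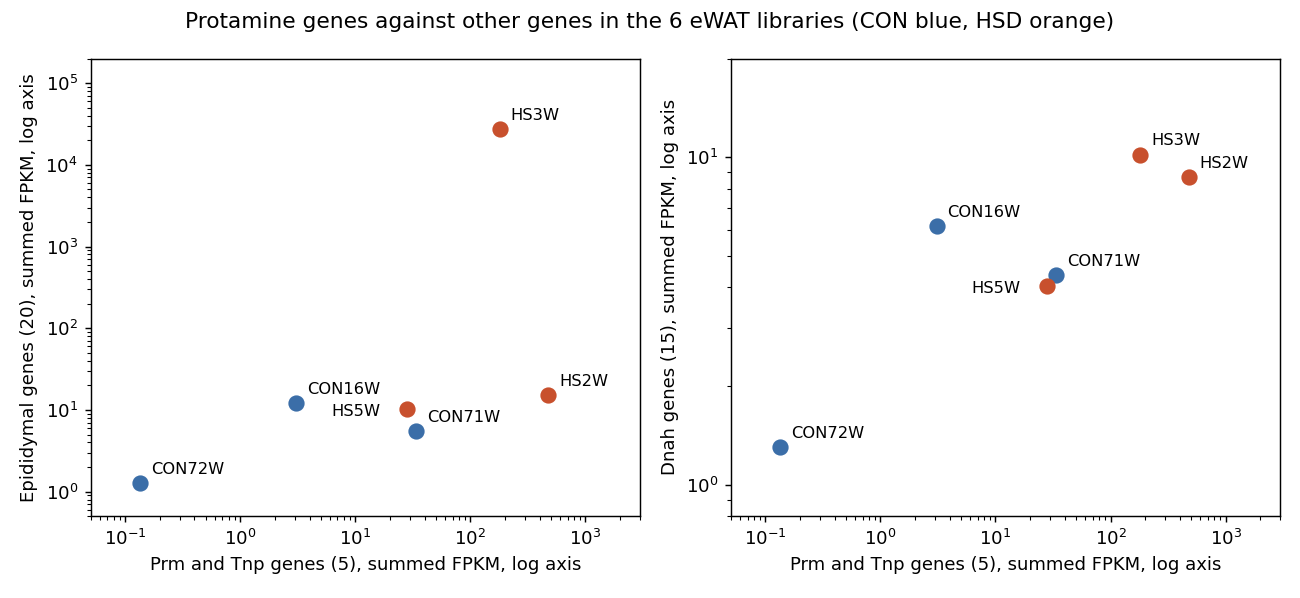
Each point is 1 eWAT library (CON blue, HSD orange) by the summed FPKM of the 5 *Prm* and *Tnp* genes (x axis) and of 20 epididymal epithelium genes (left) or 15 *Dnah* genes (right), all log axes. HS3W stands alone in epididymal genes at 27259 FPKM, while CON16W, at 3.07 FPKM for the protamine family, has a *Dnah* sum of 6.16 FPKM, above CON71W and HS5W.

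Regulators and other parts of motile cilia were read from 4 further lists. *Foxj1*, the main transcription factor of motile cilia, was at 12.1, 6.21 and 1.28 FPKM in the CON group and at 10.3, 12.3 and 4.57 FPKM in the HSD group. The 7 ciliogenesis regulators summed to 4.61 to 17.6 FPKM in the CON group and 9.22 to 28.6 FPKM in the HSD group, and *Ccno* was at 9.80 FPKM in HS3W and at most 0.76 FPKM in the others. The 14 dynein assembly and docking factors in the table summed to 24.95, 24.7 and 9.33 FPKM and to 38.4, 41.2 and 19.0 FPKM. CON72W was the lowest for these sums. *Dnaaf1*, needed to assemble dynein arms, was at 0.73, 1.40 and 0.06 FPKM and at 7.30, 5.48 and 0.68 FPKM. The 16 central pair and other axoneme genes summed to 51.3 to 77.4 FPKM in the CON group and 63.4 to 96.9 FPKM in the HSD group, of which *Tppp3*, a tubulin-binding protein gene of many tissues, held 20.5 to 53.5 FPKM. Intraflagellar transport and BBSome genes serve all cilia, also the immotile ones. These 23 genes summed to 118 to 135 FPKM in the CON group and 129 to 165 FPKM in the HSD group, with *Ift20* at 20.5 to 22.1 FPKM in 5 libraries and 31.2 FPKM in HS3W.

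Liver and muscle held traces of the protamine genes. *Prm1*, *Prm2* and *Tnp2* had 0 to 2 fragments in every liver library. In muscle, HS2M had 10, 17 and 15 fragments of these genes (1.32, 1.43 and 2.03 FPKM), the most of the 6. HS2M came from the mouse of HS2W. HS5M had 8, 4 and 2 fragments, HS3M 1, 0 and 2, CON16M 4, 0 and 3, CON71M 0, 0 and 2, and CON72M 0, 0 and 4. *Prm1* in muscle differed by 0.96 ± 0.41 (SE) on the log2(FPKM + 0.5) scale, HSD minus CON, with an adjusted p of 0.292 (limma, n = 3). Its mean was 0.18 FPKM in the CON group and 0.86 FPKM in the HSD group. It passed the filter of 0.5 FPKM only through the HSD group, so nothing is read from this test.

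In liver, 17 members had a mean of at least 0.5 FPKM and were tested, and 0 were called (limma, adjusted p under 0.05 and a log2 difference of at least 1 in either direction). Of all 10317 genes tested, 0 were called (0%), with 592 at an unadjusted p under 0.05, and voom also called 0. *Cfap36* was at 0.76, 2.85 and 2.43 FPKM in CON14L, CON16L and CON72L and at 4.51, 7.41 and 2.69 FPKM in HS2L, HS4L and HS5L. Its log2 difference was 1.12 ± 0.46 (SE), with an adjusted p of 0.764 and groups that overlapped. *Cfap298*, a dynein assembly factor, was at 0, 1.03 and 0.76 FPKM and at 2.42, 2.79 and 0.29 FPKM, with a log2 difference of 1.00 ± 0.64 and the same adjusted p. With sample weights estimated from the data it was 1.23 and passed as the only member in liver, while 926 of all 10317 genes passed. *Cfap20* was at 2.86, 2.96 and 3.81 FPKM and at 4.92, 3.03 and 4.86 FPKM, with a log2 difference of 0.35 ± 0.25, which turned to −0.15 with mitochondrially encoded genes left out. The lowest *Cfap36* and *Cfap298* values within each diet, in CON14L and HS5L, fell in the livers with the largest share of fragments on mitochondrially encoded genes, 61.2% and 44.7%, against 15.5% to 38.1% in the other 4. The part of this share was not tested gene by gene.

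The sum of the 110 genes in liver was 45.3 ± 1.60 FPKM in the CON group and 49.0 ± 1.59 FPKM in the HSD group (SD, n = 3). The groups did not overlap, and the exact permutation test gave p = 0.1, the smallest that 3 against 3 allows (2-sided). With mitochondrially encoded genes left out and the libraries rescaled, the difference was −34.8 FPKM in place of 3.76 FPKM, so its direction depended on the scaling.

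In muscle, 21 members were tested and 1, *Odf3l2*, was called, higher in the HSD group, against 0.323% of 10834 genes called in either direction and 0.102% called higher. *Odf3l2* (chr10:79639526-79645738), a paralogue of the outer dense fibre gene *Odf3*, was at 6.59, 7.92 and 7.02 FPKM in CON16M, CON71M and CON72M. It was at 18.4, 12.7 and 14.9 FPKM in HS2M, HS3M and HS5M, resting on 98 to 117 fragments in the CON group and 206 to 305 in the HSD group. The groups were well separated, at 7.18 ± 0.68 and 15.3 ± 2.85 FPKM (SD, n = 3). The log2 difference was 1.03 ± 0.15 (SE), with an adjusted p of 0.0213 by limma. The difference lay near the threshold of 1, and the adjusted p ranged from 0.00833 to 0.0917 over 16 alternatives. Leaving out HS2M gave 0.90 (adjusted p = 0.0181) and leaving out CON16M 0.98 (adjusted p = 0.0824). Without CON71M, CON72M and HS5M it was 1.10, 1.02 and 1.04, with adjusted p of 0.0501, 0.0917 and 0.0760, so each of these 5 omissions ended the call. With the replicate number as a block, *Odf3l2* was called (adjusted p = 0.0182) among 54 genes in place of 35.

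*Odf3l2* was at 0 in all 6 eWAT libraries and had 2 fragments in the 6 livers, both in CON16L. The diet effect in muscle exceeded that in liver by 1.15 ± 0.24 on the log2 scale (adjusted p = 0.245 for the interaction in limma), which did not pass. With liver at or near 0, the added 0.5 FPKM holds its diet effect near 0. The interaction therefore cannot show whether the effect differs by tissue, and nothing is read from it. That fit took the libraries as independent, although some mice gave both tissues. All 10 skeletal muscle markers were above 1 FPKM in every muscle library, and their sum was 59126 to 66241 FPKM in the CON group and 66494 to 75117 FPKM in the HSD group. The part of this shift in *Odf3l2* was not tested. The sum of all 110 genes in muscle was 53.4 ± 1.72 FPKM in the CON group and 64.5 ± 4.81 FPKM in the HSD group (SD, n = 3, exact permutation p = 0.1, the smallest possible). Without *Odf3l2* it was 46.2 ± 1.16 and 49.2 ± 2.65 FPKM (exact permutation p = 0.3).

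**Figure D5:**
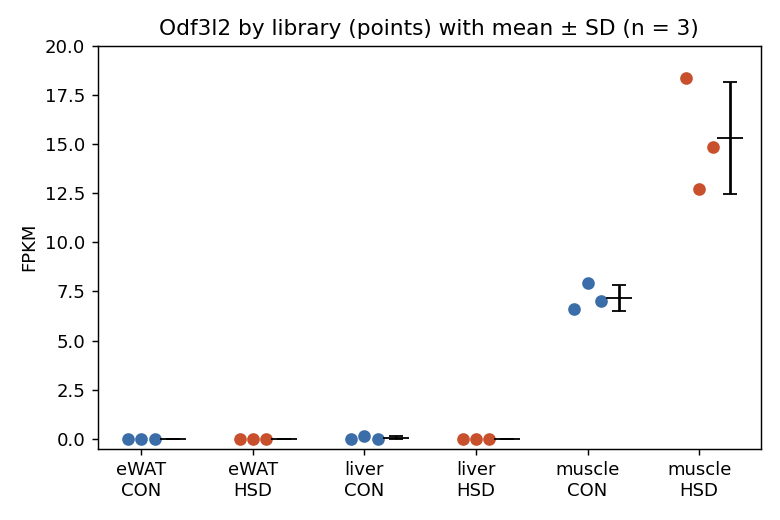
Points give FPKM of *Odf3l2* in each of the 18 libraries by tissue and diet, with mean ± SD beside them (n = 3). Muscle HSD libraries sit between 12.7 and 18.4 FPKM, above the CON libraries at 6.59 to 7.92 FPKM, and eWAT and liver lie at or near 0.

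Between control muscle and control liver, 20 members were tested and 8 were called, 5 higher and 3 lower in muscle. Of all 11500 genes, 54.0% were called, 37.6% higher and 16.5% lower, so the count of members was no higher than the share among all genes would give. The median of all genes was 0.59 higher in muscle on the log2 scale and 0.06 with median-ratio scaling, which called 2774 genes higher and 2753 lower in place of 4320 and 1892. Among members it called 5 higher and 5 lower. Mice CON16 and CON72 gave both tissues, and the main fit took the libraries as independent. With the mouse as a random block, 8 members were also called, 5 higher and 3 lower in muscle.

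*Odf3l2* was 3.82 ± 0.17 (SE) higher in muscle than in liver on the log2 scale, with an adjusted p of 3.57e-06. Where a tissue is at or near 0, as for *Odf3l2*, *Tekt1* and *Spata22*, the size depends on the pseudocount and the method. Among called members, these 3, *Odf3b* and *Spata2l* averaged under 0.5 FPKM in 1 tissue and passed the filter through the other. Their calls are conditioned on that filter, so their values are a description and nothing is read from their adjusted p. Over the alternatives the log2 difference ran from 2.97 to 6.57 for *Odf3l2*, from 1.39 to 5.10 for *Tekt1* and from −6.01 to −1.66 for *Spata22*, and all 3 were called in each alternative that tested them. *Cfap298* was at 6.27, 6.11 and 6.41 FPKM in muscle, a log2 difference of 2.78 ± 0.39 (adjusted p = 6.51e-04). *Tekt1* was at 1.12, 1.82 and 2.20 FPKM in muscle and rested on 1 fragment in the 3 livers, found in CON16L. Its log2 difference was 2.07 ± 0.22 (adjusted p = 1.72e-04). Both *Tekt1* and *Odf3l2* had their sole liver fragments in the control liver with the raised skeletal muscle markers. *Spata2* was at 5.15, 5.05 and 4.52 FPKM in muscle and at 0.93, 1.83 and 1.16 FPKM in liver, a log2 difference of 1.61 ± 0.21 (adjusted p = 4.47e-04). *Cfap97* was at 4.21, 5.09 and 3.55 FPKM in muscle and at 1.19, 1.22 and 0.98 FPKM in liver, a log2 difference of 1.55 ± 0.18 (adjusted p = 2.30e-04). With mitochondrially encoded genes left out it was 1.02, and the adjusted p was 0.0913.

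The 3 members higher in liver were *Odf3b*, *Spata2l* and *Spata22*. All 3 passed the filter only through liver, so the same limit holds for their tests. *Odf3b* was at 9.03, 9.63 and 9.67 FPKM in liver and at 0.46, 0.14 and 0.20 FPKM in muscle, a log2 difference of −3.71 ± 0.19, muscle minus liver (adjusted p = 7.52e-06). *Spata2l*, a relative of *Spata2*, was at 10.5, 9.65 and 9.22 FPKM in liver and at 0.27, 0.40 and 0.37 FPKM in muscle, a log2 difference of −3.60 ± 0.15 (adjusted p = 2.80e-06). These 2 genes of sperm-derived name were thus more abundant in liver than in any eWAT library, where their highest values were 4.64 and 2.83 FPKM. *Spata22*, a meiotic recombination gene, was at 3.19, 1.76 and 1.72 FPKM in liver and at 0 in muscle, with an adjusted p of 1.06e-04. It shares 1025 of its 1274 exon bases with another gene on the same strand, so its value is uncertain. Without CON16L, 11 members were called, 7 higher and 4 lower in muscle.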

How the data were processed

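RNA of liver, eWAT and quadriceps muscle was measured in 18 libraries. FPKM per gene was deposited by the authors, who ran cutadapt on the reads and HISAT2 against mm10. Their processing notes also name HTSeq 0.9.1 and mm9. The annotation release and the strand setting are not given in the sources used here, and the notes speak of batch correction without naming the values it touched.

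The names and lists were chosen with earlier results of these data known. FPKM was tested with limma 3.58.1 (R 4.3.3, trended variance, 2-sided) after adding 0.5 FPKM and taking log2, which shrinks the changes of low genes. Genes averaging under 0.5 FPKM over the libraries compared were not tested. Adjusted p-values are Benjamini-Hochberg over all genes tested. A call needed an adjusted p under 0.05 and an absolute log2 difference of at least 1. Summed levels used an exact permutation test (SciPy 1.17.1). The p-values measure the spread between these mice.

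Whole fragments were recovered for 18359 of 18822 genes above 0 (within 0.05 fragments), including 107 of 110 members, all but *Dnah14*, *Odf3b* and *Cfap47*. Fragment limits cover counting error only. The same replicate numbers in muscle correlated at 0.38, 0.18 and 0.18, so a fit with the replicate number as a block was also made. Of the muscle pairs with different numbers, CON72M and HS3M also correlated at 0.18, and the rest were negative. The numbers therefore need not mark a real pairing. In liver and eWAT not every pair with the same number was positive. Named with values were the protamine and transition protein genes and, per family, the 3 members with the highest FPKM in any eWAT library and the 3 with the highest eWAT median. In tested comparisons they were up to 5 called members per direction, or the 3 with the smallest p where none were called. From each further list, up to 4 genes with the highest eWAT FPKM were eligible. Coordinates are from GENCODE M21 (mm10). The scripts were tested on simulated data with 200 changed genes.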

Additional observations from a re-analysis of the deposited data

How the results depend on the processing

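With 3 libraries per group, small differences were not detectable, and most members lay too low in liver and muscle to be tested. In liver, sample weights (arrayWeights) called 1 member, in place of 0, and 926 genes, and the estimate of such weights stopped before convergence in at least 1 comparison. The count over all liver genes was 56 with all 18 libraries in 1 fit, 35 with the study's libraries, 1 with mitochondrially encoded genes left out, and 0 to 1 with each library left out. In muscle, 0 members were called with a pseudocount of 1, without a filter, or with mitochondrially encoded genes left out, and 0 to 1 with each library left out. All muscle genes called numbered 35 in the report, 8 with 1 fit of 18 libraries, 66 with voom, 58 with mitochondrially encoded genes left out, 7 without a filter, and 10 to 61 with each library left out. With the replicate number as a block, the fit gave 54 muscle genes and changed no call of a member in muscle, liver or between these tissues. In eWAT, 214 genes were called with 1 fit, 220 with sample weights and 0 to 160 with each library left out, the highest without HS3W. Members with every HSD library above every CON library numbered 13 at a mean of at least 1 FPKM, 85 in the study's libraries and 20 to 85 with each library left out. The summed liver difference was 0.37 FPKM with median-ratio scaling and −34.8 FPKM with mitochondrially encoded genes left out. The summed muscle difference was 2.95 FPKM without *Odf3l2*, an alternative chosen after seeing the data. *Cfap20* in liver turned to −0.15 with mitochondrially encoded genes left out. Except where leaving out libraries or genes itself makes the change, the cause was not tested. Of 209 alternative values for single genes, 198 kept their direction and side of the threshold.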
